A study of Homo sapiens with 6 samples.

Results

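The genes described here are the 5 NF-kB subunits (NFKB1, NFKB2, RELA, RELB and REL), the 3 classical IkB inhibitors (NFKBIA, NFKBIB and NFKBIE), the feedback inhibitor TNFAIP3 and the TNF-induced gene TNFAIP2. They were chosen by symbol, and all 10 were among the 16779 genes listed for each library. RNA-seq was done on 6 libraries labelled A549, a line from a human lung adenocarcinoma (LUAD in the labels). The 3 control libraries are labelled WT and the 3 others RN7SK knockout, a loss of the gene for 7SK, the small nuclear RNA that holds the elongation kinase P-TEFb inactive. The labels used here name no treatment, time or clone for either group, and do not say that replicates were separate cultures, so p-values measure the spread between these libraries.

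NF-kB is a family of dimeric transcription factors built from proteins that share the Rel homology domain. In resting cells IkB proteins hold the dimers in the cytoplasm. Signals from TNF, interleukin 1 or Toll-like receptors activate the IkB kinase (IKK), IkB is degraded, and the freed dimers enter the nucleus and bind kappa-B sites. In airway and lung epithelium this pathway is known for switching on cytokines, chemokines and adhesion molecules, and RELA is known to bring P-TEFb to some of its target genes. Several subunits and inhibitors are themselves target genes, which gives the pathway its feedback.

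Total counts were 16018260 to 19357144 per library, and the knockout libraries were the shallower ones. The labels could not be checked at RN7SK, which has no row in the tables used here. CDKN2A, which A549 cells are known to lack, had a mean of 50.9 CPM (read counts scaled to library size) in the libraries labelled control and 0.0609 CPM in those labelled knockout. Directions below are therefore those of libraries so labelled, and a difference of cell line or clone cannot be told apart from the knockout. Among epithelial markers KRT7, KRT8 and KRT18 were abundant in all libraries while EPCAM and KRT19 stayed under 1 CPM on average in each group. All 4 tested epithelial markers were higher in the knockout libraries, against 42% of all tested genes, with CDH1 up 5.42-fold (29.2 to 158 CPM). The epithelial list summed to 3286 to 3502 CPM in the control and 5946 to 6057 CPM in the knockout libraries. Alveolar and airway markers were at or near 0 (summed 0.68 to 2.39 CPM). The libraries differed in most genes: of 12929 tested, 5428 were higher and 5564 lower in the knockout group.

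Kappa-B sites are part of how these genes are known to be controlled, so their start regions are shown before their levels. RefSeq windows (GRCh38.p14, 250 bases before to 50 after each start) were matched for 8 of the 10 genes, with 13 windows in all. RELB and NFKBIE had no window. The kappa-B consensus was searched on both strands, where a palindromic site matches both and overlapping matches count as one stretch. It was found in 7 of the 13 windows and for 6 of the 8 genes: NFKB1, NFKB2, REL, NFKBIA, NFKBIB and TNFAIP3. Over all 35116 windows of the same length 5.91% held a match, and 8.94% of the 13237 genes that have both a window and a row in the count tables. The 130 bases before each start that holds a match follow. TNFAIP2 was added because its level differed most and no match was found in its only window. That window is at the start at chr14:103123461, while the gene begins at 103121469, where no window was searched. Capitals mark the matches.
NFKB1 (chr4:102501229-102501358, plus strand): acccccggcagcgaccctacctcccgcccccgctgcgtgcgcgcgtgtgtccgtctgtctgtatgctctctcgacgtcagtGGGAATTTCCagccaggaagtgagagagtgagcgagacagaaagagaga
NFKB2, first start shown (chr10:102394448-102394577, plus strand): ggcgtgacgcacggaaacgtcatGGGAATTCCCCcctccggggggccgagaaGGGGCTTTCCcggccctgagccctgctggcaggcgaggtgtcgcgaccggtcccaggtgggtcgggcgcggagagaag
NFKB2, further start (chr10:102395575-102395704, plus strand): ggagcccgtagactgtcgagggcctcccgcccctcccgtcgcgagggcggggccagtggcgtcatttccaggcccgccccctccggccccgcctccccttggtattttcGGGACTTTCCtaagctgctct
REL (chr2:60881444-60881573, plus strand): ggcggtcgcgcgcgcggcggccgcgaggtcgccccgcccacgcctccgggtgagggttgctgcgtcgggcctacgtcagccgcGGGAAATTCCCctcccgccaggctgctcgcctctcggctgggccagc
NFKBIA (chr14:35404750-35404879, minus strand): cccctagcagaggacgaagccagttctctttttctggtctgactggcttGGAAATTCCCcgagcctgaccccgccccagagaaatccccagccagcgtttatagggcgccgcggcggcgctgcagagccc
NFKBIB (chr19:38899839-38899968, plus strand): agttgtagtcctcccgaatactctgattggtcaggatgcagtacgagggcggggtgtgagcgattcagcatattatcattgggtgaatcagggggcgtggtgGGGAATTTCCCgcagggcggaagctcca
TNFAIP3 (chr6:137867129-137867258, plus strand): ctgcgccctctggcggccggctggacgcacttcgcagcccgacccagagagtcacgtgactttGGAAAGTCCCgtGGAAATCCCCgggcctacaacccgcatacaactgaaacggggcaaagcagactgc
TNFAIP2 (chr14:103123331-103123460, plus strand): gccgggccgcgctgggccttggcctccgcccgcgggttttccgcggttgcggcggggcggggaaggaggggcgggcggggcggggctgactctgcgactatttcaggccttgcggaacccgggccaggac

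The same 10 bases, GGGAATTTCC, occurred in 4 of these genes. They were read on the strand shown in NFKB1 and NFKBIB and on the opposite strand in REL and NFKBIA. TNFAIP3 carried 2 matches, GGGACTTTCC and GGGGATTTCC, both on the opposite strand and from 67 to 46 bases before its start. GGGACTTTCC was also present at the further start of NFKB2, from 21 to 12 bases before it, and that start had another match outside the stretch shown. RELA was without a match in both of its windows. A match describes these letters only; it shows no binding in these cells.

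Of the 10 genes, all of which passed the low-count filter, 5 fell, 3 rose and 2 did not pass the test in the knockout libraries (edgeR quasi-likelihood test, adjusted p under 0.05 over all tested genes). Passing is the usual state here: 85% of all tested genes passed, 42% higher and 43% lower. Changes were mostly small. The median absolute log2 fold change was 0.44 for the 10 genes against 0.65 for all tested genes, and 7 of the 10 were below that overall median. In counts, changes of at least 2-fold were called for 1 of the 10 genes, against 33.6% of all tested genes. As these are bulk libraries, fewer cells of a type and less RNA per cell cannot be told apart.

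**Figure D1:**
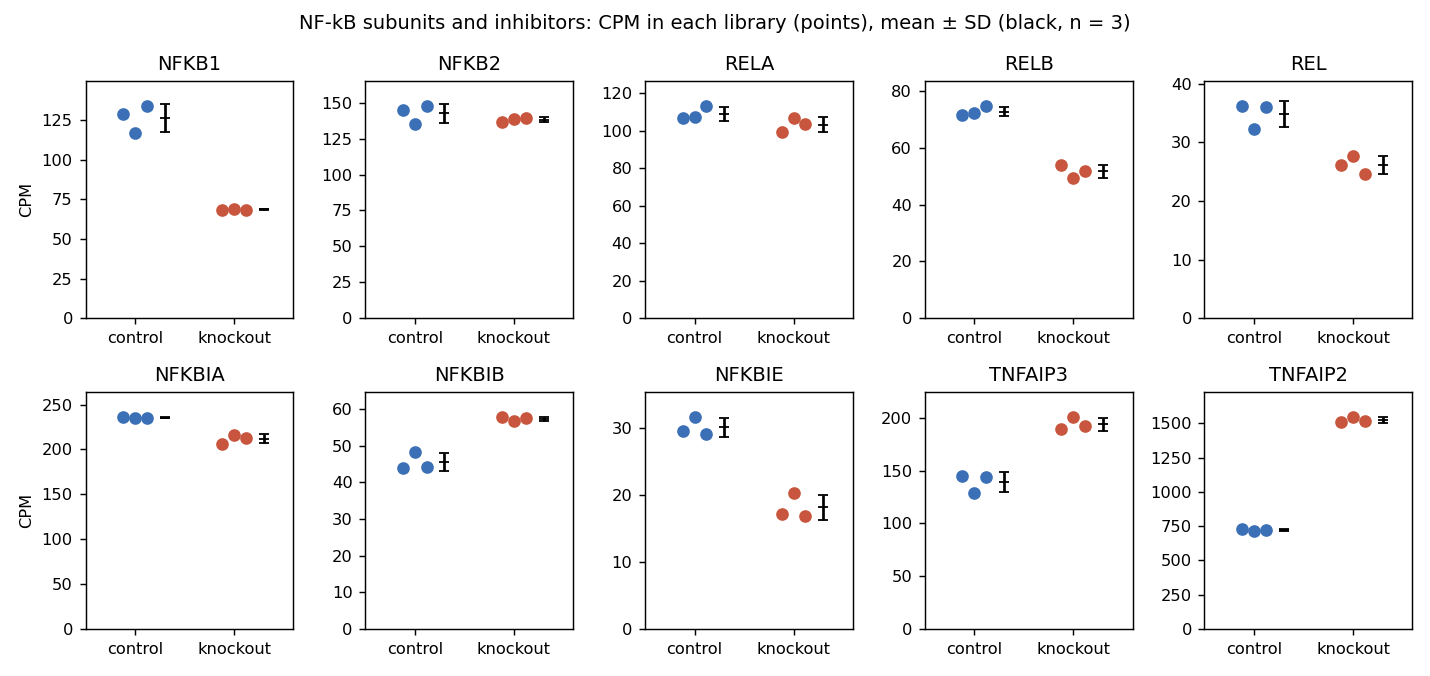
CPM of each gene (vertical axis, from 0) in the 3 control and 3 knockout libraries (points), with mean ± SD in black. The points of the 2 groups overlap for NFKB2 and RELA only, and TNFAIP2 shows the widest gap.

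Among the subunits, NFKB1 differed most. It encodes p105, which is cut to the DNA-binding subunit p50. Its level was 129, 117 and 134 CPM in the control replicates and 68.5, 68.9 and 68.5 CPM in the knockout replicates. The groups did not overlap, control replicate 2 was the lowest of its group, and the knockout libraries were almost identical. NFKB1 fell 1.84-fold (log2 fold change -0.88 ± 0.053, fit ± SE, edgeR adjusted p = 1.11e-16).

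NFKB2, which encodes p100, the precursor of p52 in the non-canonical pathway, had control levels of 145, 135 and 147 CPM. Its knockout levels of 136, 139 and 139.6 CPM lay inside that range. NFKB2 did not pass the test in counts (log2 fold change -0.05, 95% interval -0.14 to 0.05, edgeR adjusted p = 0.363). Its sign changed with the use of gene length and also with the scaling and the filter, as described further on.

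RELA encodes p65, the subunit with the main activation domain of the canonical pathway. It had 107, 107 and 113 CPM in the control libraries and 99.2, 107 and 104 CPM in the knockout libraries. The groups overlapped through knockout replicate 2. No difference was called (log2 fold change -0.08, 95% interval -0.18 to 0.02, edgeR adjusted p = 0.143), and the interval leaves out a change of the size seen for NFKB1.

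RELB, the partner of p52, was at 71.6, 72.1 and 74.5 CPM in the control and at 53.9, 49.5 and 51.8 CPM in the knockout libraries. REL, which encodes c-Rel and is best known from lymphoid cells, had 36.1, 32.2 and 36 CPM against 26.1, 27.7 and 24.7 CPM. Both pairs of groups were apart. RELB fell 1.41-fold (log2 fold change -0.49 ± 0.056, edgeR adjusted p = 9.91e-10), and REL fell 1.33-fold (-0.41 ± 0.072, edgeR adjusted p = 3.64e-06). Of 4 tested markers of blood cells, 3 were higher in the knockout libraries, where 42% of all tested genes were higher. These were CD68 1.42-fold (33.5 to 47.6 CPM), CD14 4.18-fold (1.69 to 7.1 CPM) and CD8A 1.91-fold (0.686 to 1.31 CPM). ITGAM was not called (3.24 to 4 CPM, edgeR adjusted p = 0.107). PTPRC, the pan-leukocyte marker, had 0 counts in the control and a mean of 0.174 CPM in the knockout group. The summed haematopoietic list was 37.6 to 41.6 CPM in the control and 59 to 63.7 CPM in the knockout libraries, most of it CD68, so it was higher where REL was lower. CD3E was at 0 in all 6 libraries. Whether these markers bear on REL was not tested.

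The 3 classical inhibitors went different ways. NFKBIA encodes IkB-alpha, the inhibitor that is degraded and remade within a single NF-kB response. Control levels were 236, 236 and 235 CPM and knockout levels 206, 216 and 213 CPM. The groups stayed apart although the gap was small. NFKBIA fell 1.11-fold (log2 fold change -0.15 ± 0.042, edgeR adjusted p = 0.00141), and with upper quartile scaling it no longer passed (log2 fold change -0.07, edgeR adjusted p = 0.165).

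NFKBIB, which encodes IkB-beta, was measured at 43.8, 48.4 and 44.3 CPM in the control and 57.8, 56.6 and 57.5 CPM in the knockout libraries. Every knockout library was above every control library. NFKBIB rose 1.26-fold (log2 fold change 0.33 ± 0.059, edgeR adjusted p = 4.8e-06). NFKBIE encodes IkB-epsilon and had the lowest level of the inhibitors, 29.5, 31.7 and 29.2 CPM in the control against 17.3, 20.3 and 16.9 CPM in the knockout libraries. NFKBIE fell 1.66-fold (log2 fold change -0.73 ± 0.08, edgeR adjusted p = 3.66e-10). Knockout replicate 2 was the highest of its group and still below all controls.

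TNFAIP3 and TNFAIP2 rose. TNFAIP3 encodes A20, a ubiquitin-editing enzyme that shuts down signalling from the TNF receptor. It had 145, 129 and 144 CPM in the control and 189, 201 and 192 CPM in the knockout libraries. TNFAIP3 rose 1.39-fold in counts (log2 fold change 0.48 ± 0.048, edgeR adjusted p = 6.38e-11), with no overlap between the groups.

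TNFAIP2 is a TNF-induced gene whose product resembles a subunit of the exocyst and is linked to membrane protrusions; it is not an IkB. It was measured at 730.0, 717 and 725 CPM in the control and 1508, 1546 and 1521 CPM in the knockout libraries. The replicates lay close together in both groups. TNFAIP2 rose 2.11-fold (log2 fold change 1.08 ± 0.038, edgeR adjusted p = 2.22e-23), the only change of at least 2-fold in counts among the 10 genes. On log2(FPKM + 0.1) TNFAIP3 passed 2-fold as well (log2 fold change 1.07). The 5 tested genes of at least 5 mean CPM whose log2 CPM pattern over the 6 libraries came closest to TNFAIP2 were PSAP, PRSS23, USF2, SUPT7L and MED29. Their root mean square differences from it were 0.0215 to 0.0308 on the log2 scale. With 2 groups of libraries this likeness means little more than a similar fold change.

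The groups without overlap numbered 8 of the 10 genes, and 85.6% of all tested genes had no overlap. Control replicate 2 stood apart from the other controls in counts over all genes (chi-square per degree of freedom 6.48 and 8.3, against 2.96 between replicates 1 and 3). Without it, NFKB2 and RELA also passed as lower (log2 fold changes -0.09 and -0.09, edgeR adjusted p = 0.0493 and 0.0474), so 7 of the 10 genes were then lower. In that library NFKB1, NFKB2, REL, TNFAIP3 and TNFAIP2 were the lowest of the controls, and NFKBIB and NFKBIE the highest.

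The deposited FPKM (a level per length of gene and size of library) rest on gene lengths that differ between the 2 groups of tables. Lengths recovered from count and FPKM were nearly the same for NFKB1 (4495 bases for control tables, 4459 for knockout tables), RELB (2279 and 2273), REL (7978 and 7935), NFKBIA (1567 and 1559) and NFKBIB (1473 and 1460). These 5 agreed within 1%, as did 32.3% of all genes with a length in both. RELA (2578 and 2517) was close to them. The lengths of NFKBIE (2581 and 2344), NFKB2 (4858 and 4093), TNFAIP2 (5264 and 4339) and TNFAIP3 (8819 and 5945) were shorter in the knockout tables by more.

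**Figure D2:**
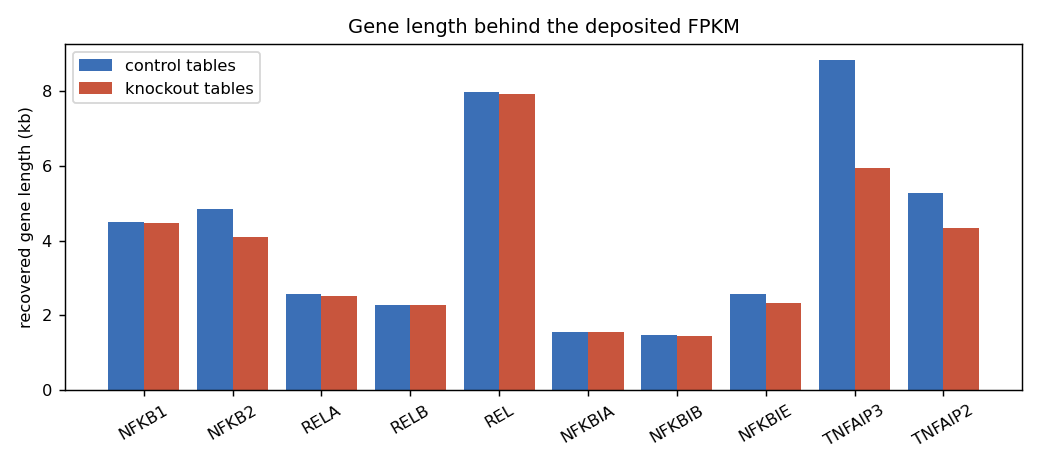
Gene length in kilobases (vertical axis, from 0) behind the FPKM of each gene in the control and knockout tables. TNFAIP3, NFKB2 and TNFAIP2 have visibly shorter lengths in the knockout tables, and NFKB1, RELB, REL, NFKBIA and NFKBIB do not.

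The call of NFKB2 and the sizes for TNFAIP3 and TNFAIP2 changed when length entered. With the recovered lengths as an offset in edgeR, NFKB2 turned from no call to higher (log2 fold change 0.14, edgeR adjusted p = 0.00518). On log2(FPKM + 0.1) it was 0.23 higher (limma adjusted p = 0.000644). TNFAIP3 reached a log2 fold change of 1.07 on log2(FPKM + 0.1), against 0.48 in counts. TNFAIP2 reached 1.38 on that scale. The median of all tested genes was also higher on log2(FPKM + 0.1), 0.08 against -0.01 in counts. Whether the differing gene models also changed which reads were assigned to these genes was not tested.

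**Figure D3:**
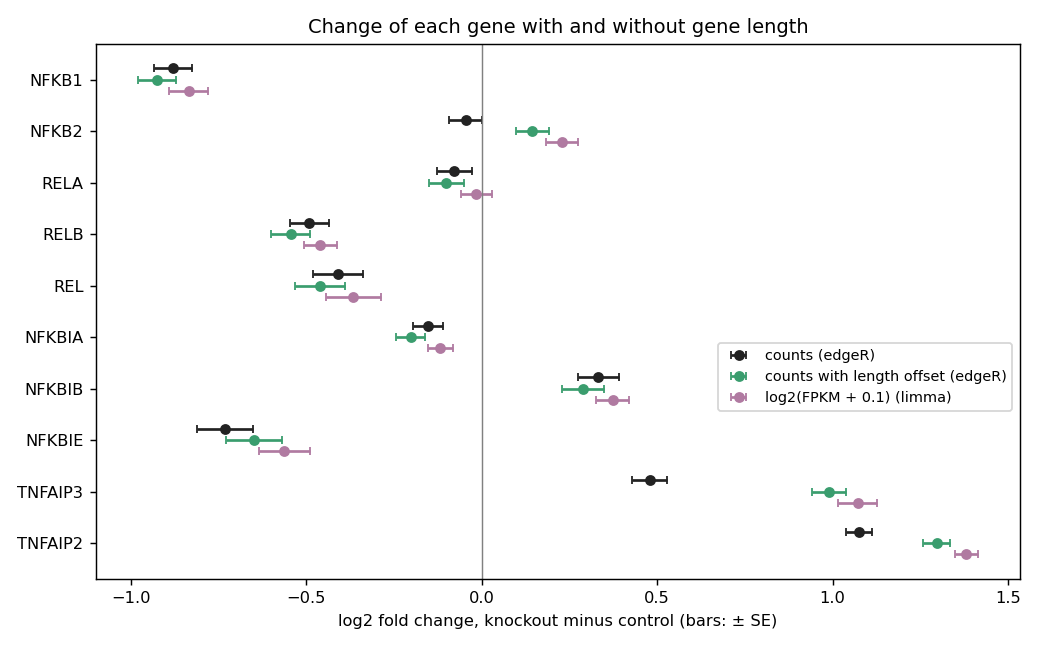
Log2 fold change of knockout against control (horizontal axis, ± SE) for each gene from counts, from counts with a length offset and from log2(FPKM + 0.1). NFKB2 crosses 0 between the scales, and TNFAIP3 moves from 0.48 to 1.07.

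Per length, as deposited FPKM, the order of the genes was led by NFKBIA and TNFAIP2. In the control libraries NFKBIA came first with 146 ± 0.863 FPKM (mean ± SD, n = 3) and TNFAIP2 second with 134 ± 1.55 FPKM, without overlap. RELA followed at 41.2 ± 1.23 FPKM. RELB (31.1), NFKBIB (30.1), NFKB2 (28.6) and NFKB1 (27.4 FPKM) came next, and each overlapped its neighbour in this order. TNFAIP3 (15.4), NFKBIE (11.4) and REL (4.25 FPKM) closed the order with no overlap.

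The knockout tables put TNFAIP2 first at 349 ± 4.29 FPKM and NFKBIA second at 135 ± 3.34 FPKM. RELA, at 40.7 ± 1.55 FPKM, overlapped NFKBIB at 38.9 ± 0.538 FPKM. NFKB2 (33.5) overlapped TNFAIP3 (32.4 FPKM). RELB (22.6), NFKB1 (15.3), NFKBIE (7.69) and REL (3.27 FPKM) followed without overlap. REL was thus last in both groups, and TNFAIP3 stood above NFKB1 in the knockout group but below it in the control group.

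In the make-up of the 5 subunit mRNAs, NFKB1 and RELB had lower shares in the knockout libraries, and NFKB2 and RELA higher ones. In counts the levels of NFKB2 (143 to 138 CPM) and RELA (109 to 103 CPM) did not rise. By FPKM, NFKB1 was 20.6 ± 0.728% of their sum in the control and 13.2 ± 0.0903% in the knockout libraries. NFKB2 was 21.6 ± 0.363% and 29 ± 0.198%. RELA was 31.1 ± 0.61% and 35.3 ± 1.04%, and RELB 23.5 ± 0.57% and 19.6 ± 1.01%. REL was 3.2 ± 0.125% and 2.84 ± 0.16%. None of the 5 ranges overlapped between the groups by FPKM, but those of REL did in CPM and with the control lengths in all libraries. These shares are a description with no test, since a lower share of one subunit raises the others and lengths enter.

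**Figure D4:**
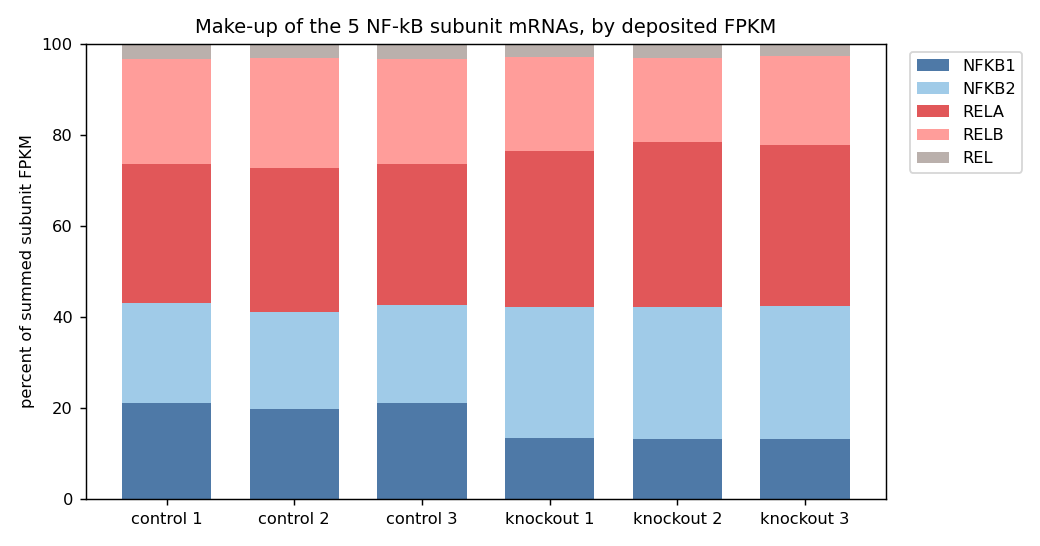
Percent of the summed FPKM of the 5 subunit genes (vertical axis) in each library. NFKB1 takes 19.8% to 21.1% in the control and 13.2% to 13.3% in the knockout libraries.

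The summed FPKM of NFKBIA, NFKBIB and NFKBIE was 1.42 ± 0.0687 times that of the 5 subunits in the control and 1.57 ± 0.0166 times in the knockout libraries. The ranges were 1.35 to 1.49 and 1.56 to 1.59. With the control lengths used in all libraries the knockout value was 1.65. This is a ratio of mRNA and carries nothing about the proteins, whose turnover sets IkB levels.

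The atypical IkB genes, whose products act in the nucleus, were split. BCL3, a coactivator of p50 and p52 dimers, rose 2.47-fold from 44.1 ± 2.37 to 109 ± 3.57 CPM (edgeR adjusted p = 6.13e-21). NFKBID, which encodes IkB-NS, fell 2.95-fold from 22.7 ± 1.1 to 7.67 ± 0.95 CPM (edgeR adjusted p = 5.31e-16). NFKBIZ had 60.9 ± 7.68 and 55.6 ± 2.83 CPM and did not pass (edgeR adjusted p = 0.095).

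Of 16 receptors upstream that were tested, 8 rose and 7 fell (median log2 fold change 0.04, against -0.01 for all tested genes). Among all tested genes 42% rose and 43% fell, the shares to set beside this list and those that follow. CD40, a receptor of the non-canonical pathway, had 1214, 1403 and 1234 counts in the control libraries against 12, 8 and 8 in those labelled knockout, a 123.5-fold fall. TLR2, a sensor of bacterial lipoproteins, fell 37.8-fold from 61.1 ± 2.84 to 1.62 ± 0.775 CPM. TLR4 and TLR3, sensors of lipopolysaccharide and double-stranded RNA, rose 7.38-fold and 6.93-fold in counts. These sizes moved with gene length: the log2 fold change of TLR4 was 2.88 in counts and 1.68 with the length offset, and that of TLR3 2.79 and 1.75. A TNF receptor and the lymphotoxin receptor, picked after their values were seen, also rose: TNFRSF1A from 113 ± 4.85 to 402 ± 6.71 CPM and LTBR from 58.7 ± 2.65 to 230.4 ± 9.67 CPM. The other TNF receptor gene, TNFRSF1B, was too low to be tested (0.266 and 0.331 CPM).

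Of 7 tested ligands, 4 rose and 3 fell (median log2 fold change 0.99). The list still summed to less, 128 to 141 CPM in the control and 68.6 to 73.7 CPM in the knockout libraries. Of those that rose, LTA (0.334 to 1.46 CPM) and IL1B (0.513 to 1.13 CPM) were near the floor. IL18, named after its values were seen, rose from 27.3 to 54.1 CPM. The cytokine TNF had 1394, 1559 and 1401 counts in the control libraries against 16, 13 and 15 in those labelled knockout, an 89.2-fold fall. LTB and TNFSF12, which signal through the lymphotoxin receptor and TNFRSF12A, fell 7.17-fold and 4.63-fold. TNFSF14 rose 4.23-fold from 2.1 ± 0.101 to 8.9 ± 0.501 CPM.

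Of 35 tested kinases and adaptors, 20 fell, 12 rose and 3 were not called (median log2 fold change -0.26). By 2-fold or more, 22.9% fell and 11.4% rose, against 14.1% and 19.5% of all tested genes. Of the IKK subunits, named for their role after their values were seen, IKBKB rose from 40.0 ± 0.814 to 69.9 ± 1.31 CPM and IKBKG from 10.9 ± 1.42 to 14.4 ± 1.04 CPM. CHUK had 48.5 ± 1.48 and 49.4 ± 0.827 CPM and did not pass (edgeR adjusted p = 0.671). MAP3K14, the kinase that starts NFKB2 processing and was likewise picked afterwards, fell from 59.2 ± 6.81 to 33.5 ± 3.43 CPM.

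MAP3K8, a kinase that p105 binds and restrains, rose 7.52-fold from 9.9 ± 0.294 to 74.4 ± 4.18 CPM. BIRC3 and BIRC2, ubiquitin ligases of the TNF receptor complex that also limit MAP3K14, fell 4.01-fold and 3.55-fold. The adaptor TRAF1 fell 3.4-fold. These calls held in every setting run, but sizes moved with gene length: on the log2 scale MAP3K8 was at 2.91 from counts alone and 3.71 with the length offset, and BIRC3 at -2 and -1.4.

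Of 17 other negative regulators, 11 fell and 4 rose (median log2 fold change -0.42), where 43% of all tested genes fell and 42% rose. By 2-fold or more, 29.4% of the list fell and 5.88% rose, against 14.1% and 19.5% of all tested genes. ITCH, a ubiquitin ligase that works with A20, fell 3.71-fold from 227 ± 2.97 to 61.1 ± 1.38 CPM. OTULIN, which removes linear ubiquitin chains, fell 2.99-fold from 133 ± 4.61 to 44.6 ± 3.28 CPM. PDLIM2, a ligase for nuclear RELA, fell 3.67-fold, and COMMD1 fell 2.16-fold. TNFAIP3, which rose, went against the median of this list.

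Target genes were divided: of 36 tested, 15 rose and 20 fell, with 1 not called (median log2 fold change -0.32). The lists overlap. TNF, LTB, IL1B, BIRC3, TRAF1, RIPK2, TNIP1, BCL3 and NFKBIZ are counted here and in a list above. At least 2-fold, 11 rose (30.6% of the 36) and 13 fell (36.1%), while among all tested genes 19.5% rose and 14.1% fell by that much. ICAM1, an adhesion molecule, fell 40.0-fold, the cytokine IL6 44.9-fold and the maturation marker CD83 10.02-fold. Chemokines went both ways. CXCL1, CXCL2, CXCL3, CXCL5, CXCL8, CXCL10 and CCL2 were called higher, though CXCL10 was near the floor (0.0174 to 0.76 CPM). CXCL10 and the equally low IL1B (0.513 to 1.13 CPM) are among the 11 that rose at least 2-fold. CCL20 fell 4.57-fold from 49 ± 3.31 to 10.7 ± 1.26 CPM, and CCL5 was too low to be tested. Among those picked after their values were seen, CXCL5 rose from 287 ± 10.9 to 834.5 ± 23.9 CPM, CXCL8 from 115 ± 3.6 to 188 ± 10.7 CPM and PTGS2, a prostaglandin synthase gene, from 136 ± 4.74 to 572 ± 5.24 CPM. SOD2, chosen in the same way, fell from 2075 ± 45.5 to 1065 ± 3.37 CPM. Its fall was larger in deposited FPKM, from 256 ± 5.44 to 60.1 ± 0.292, so its size moved with gene length.

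**Figure D5:**
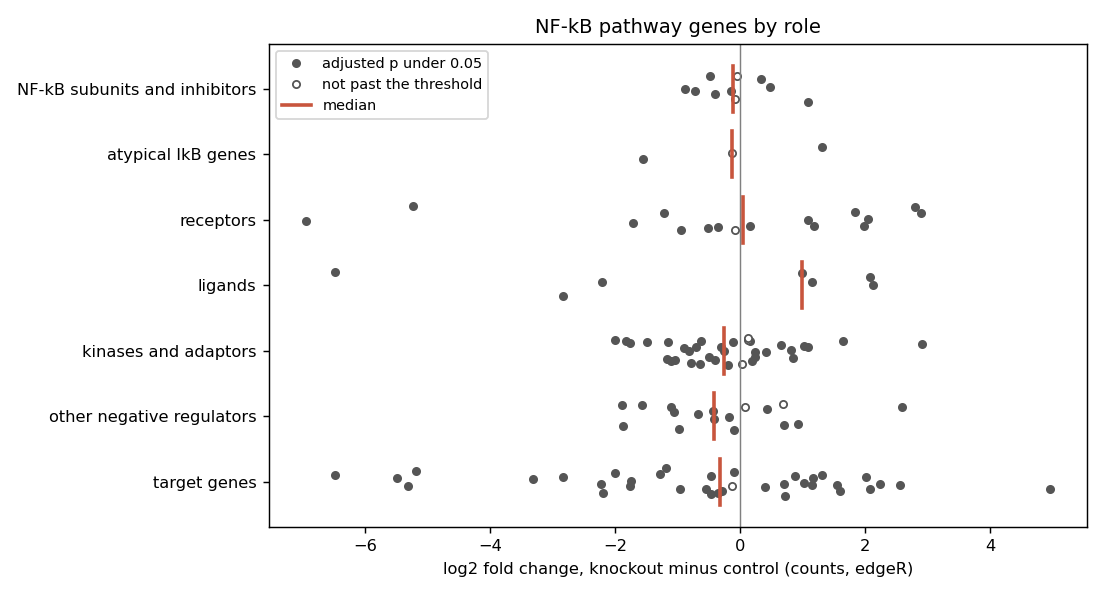
Log2 fold change of knockout against control (horizontal axis) for each tested gene by role, filled where the adjusted p was under 0.05, with the median in red. The 10 subunits and inhibitors span -0.88 to 1.08, a narrower range than receptors, ligands or target genes.

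Markers of other cell types differed between the groups beside these genes. The summed endothelial list was 162 to 175 CPM in the control and 4.19 to 4.92 CPM in the knockout libraries. All 4 tested markers of it fell, as did 43% of all tested genes. These were ESAM (110.1 to 2.92 CPM), ENG (54.6 to 0.235 CPM), ROBO4 (1.9 to 0.139 CPM) and CDH5 (1.65 to 0.294 CPM). PECAM1, VWF and TEK were under 0.2 CPM on average in each group. KDR, also too low to be tested, was higher in the knockout group (0.0894 to 0.638 CPM). Summed fibroblast markers were 73.7 to 78 CPM in the control and 116 to 124 CPM in the knockout libraries. Most of that sum was COL5A2, which rose from 47.8 to 81 CPM. Of the 4 tested fibroblast markers 3 rose and 1 fell, FBN1 (22.3 to 16.6 CPM). COL1A2, COL3A1, DCN, LUM, PDGFRA and PDGFRB were all too low to be tested. Of these only LUM was lower in the knockout group (0.389 to 0.129 CPM). The part of all these markers in the differences of NF-kB genes was not tested.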

How the data were processed

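Gene counts and FPKM of 6 libraries (3 control, 3 RN7SK knockout, from the labels) were used. TRIzol extraction and an mRNA library kit were used, per the labels' protocols. HISAT2 2.2.1.0, Trimmomatic 0.36, FastQC 0.11.5 and the build GRCh38 are named in the submitters' processing notes. For the counter, annotation and strand setting, no entry was found (not given in the sources used here), and overlapping or antisense genes may share reads. The deposited counts are whole reads per gene with no normalization. The deposited FPKM are scaled to gene length and library size by the authors. Each gene's length was worked out by dividing its count by its FPKM and by the library total. A factor per library (0.982 to 0.984), chosen so that lengths came out whole, was then applied. With it, lengths were whole within 0.02 bases for at least 99.993% of genes with a length in each library.

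Counts were fitted over all genes in R 4.3.3 with edgeR 4.0.16 (filterByExpr, trimmed mean of M values with factors 0.989 to 1.02, robust glmQLFit, two-sided glmQLFTest, Benjamini-Hochberg over 12929 genes, threshold 0.05). SE is the log2 fold change divided by the root of F. Replicates differed by more than counting noise (chi-square over degrees of freedom, 1.74 to 8.3). Alternatives were 3 other scalings, 2 filters, DESeq2 1.42.0, limma 3.58.1 on log2(FPKM + 0.1) and log2(FPKM + 1), a length offset, a replicate block, leaving out each library and a 2-fold threshold. CPM per kilobase with control lengths was added after seeing the data. Named genes were all 10 members, up to 4 called genes of each pathway list with at least 5 mean CPM by absolute log2 fold change, and the 5 genes most like the most changed member. The members and lists were chosen with earlier results of these data known. Promoter sequences are from RefSeq; Python 3.11.15 was used for these and for figures.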

Additional observations from a re-analysis of the deposited data

How the results depend on the processing

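Of 160 refits of the 10 genes (16 settings each), 151 kept direction and call, and all 334 refits of the named pathway genes did. Upper quartile scaling moved the median log2 fold change of all tested genes from -0.01 to 0.08. Under that common shift NFKB2 reversed to 0.042 and RELA to 0.0095, and NFKBIA weakened to -0.066. NFKB2 also reversed to 0.00069 with at least 1 CPM in all libraries. Under that filter NFKB1, RELA and RELB moved up too, from -0.88, -0.077 and -0.49 to -0.83, -0.031 and -0.44. NFKB2 was 0.23 on log2(FPKM + 0.1), 0.22 on log2(FPKM + 1) and 0.14 with the length offset. The median of all tested genes was 0.081 on log2(FPKM + 0.1) and 0.059 on log2(FPKM + 1). The causes of these reversals were not tested. Leaving out single libraries gave -0.086 to -0.027 for NFKB2 and -0.105 to -0.0495 for RELA, each called only without control replicate 2. The atypical IkB genes had 1 to 2 called lower when single libraries were left out.

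With the 2-fold threshold, members called higher were 1 and lower 0, receptors lower 4, kinases and adaptors 4 higher and 8 lower, other negative regulators 1 higher and 5 lower, targets 13 lower, and all tested genes 2523 higher and 1822 lower. Atypical IkB genes called lower were 2 with no filter or with the length offset, ligands called higher 2 with at least 1 CPM in all libraries (4 tested), and other negative regulators called higher 7 on either FPKM scale.

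In CPM without length, control and knockout shares of the subunits were 26% and 17.7% for NFKB1, 29.4% and 35.6% for NFKB2, 22.5% and 26.6% for RELA, 15% and 13.3% for RELB and 7.16% and 6.74% for REL (6.96 to 7.4% and 6.35 to 7.07%, overlapping), and the ratio of IkB to subunits was 0.642 and 0.74. With control lengths throughout, knockout shares were 13.9% for NFKB1, 25.9% for NFKB2, 36.5% for RELA, 20.7% for RELB and 2.99% for REL, and the ratio was 1.65.

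Replicate numbers did not pair the libraries (correlations of same-numbered deviations -0.025 to 0.018). With the replicate block the members called stayed at 3 higher and 5 lower, and all tested genes were 5397 higher and 5513 lower. On log2(FPKM + 1) low genes shrank, such as CD40 to -4.33 from -6.95. Counts of 8 to 16 per knockout library limit the precision for CD40 and TNF.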
